A study of Mus musculus with 24 samples.

Results

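Chromosomal contacts made by a mutated Oct4 viewpoint on chromosome 11 were compared with those made by the wild-type Oct4 viewpoint on chromosome 17 in mouse embryonic stem cells. The comparison took every library whose label names either Oct4 viewpoint, 8 for the mutated and 8 for the wild-type viewpoint, or 16 of the 24 libraries of the series. The other libraries start from an unrelated region and were not used. The cells were of 2 lines, OCF2ΔOCT4/SOX2 and OCF2ΔYY1, both of strain C57Bl/6 x 129/Sv at passage 7, shortened here to OctSox line and YY1 line. Each line was sampled on day 0 and day 3, with 2 biological replicates for each line, day and viewpoint, which gave 8 groups. The mutated allele is a different one in each line, named Mut_OctSox or Mut_YY1 in the titles, so a comparison of lines is also a comparison of mutated alleles. The labels describe the chromosome 11 viewpoint as an insertion region, give no length or structure for the insert, and leave unnamed whatever treatment was applied between the days. They also do not say whether libraries of both viewpoints with equal line, day and number were amplified from the same ligated material. P-values therefore measure the spread between these libraries.

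Oct4 is the product of Pou5f1, a transcription factor that holds embryonic stem cells in the pluripotent state, and its level falls as they differentiate. It binds DNA together with SOX2 at many enhancers of pluripotent cells. YY1 is a zinc finger protein found at many promoters and enhancers and has been linked to loops between them. In 4C, chromatin is crosslinked, cut with HindIII and ligated, and the fragments joined to one chosen fragment, the viewpoint, are counted. Counts fall steeply with distance along the chromosome from any viewpoint, and the neighbourhood on each side shapes that fall. Because the viewpoints lie on different chromosomes, fragments cannot be matched between them, and contact was compared by distance, by side and by how few fragments hold it. For the same reason the mutation, the insert and the surrounding chromosome cannot be told apart in any difference given here.

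On chromosome 11 the viewpoint fragment ran from 94813216 to 94826180 (12965 bp, mm9), between a lower neighbour of 1999 bp and a higher neighbour of 12630 bp. On chromosome 17 it ran from 35633988 to 35641095 (7108 bp, mm9), between neighbours of 6450 and 2047 bp. No gene, exon or intron was assigned to these fragments, since an annotation of that build was not used here. The viewpoint and 1 fragment on either side were left out of every value below. They held between 1.63% and 13.3% of the counts of the mutated libraries and between 2.38% and 72.5% of the wild-type ones. After that, the mutated libraries held 2820 to 252528 counts (median 30595) and the wild-type libraries 7090 to 333751 (median 56226). The 4 libraries of day 3 replicate 2, called the 4 shallow libraries below, were each the shallowest of their line and viewpoint, with 3212 and 7976 counts for the mutated and wild-type viewpoint in OctSox cells and 2820 and 7090 in YY1 cells. The remaining chromosome reached 91.8 Mb below and 27.0 Mb above the mutated viewpoint, and 32.6 Mb below and 59.6 Mb above the wild-type viewpoint. "Lower" and "higher" here refer to coordinates.

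The side from which nearby contacts came differed between the viewpoints, with no overlap between their libraries. Within 1 Mb, the mutated viewpoint drew 46.7% ± 8.3 (SD, n = 8) of its counts from the lower side, against 20.1% ± 6.1 (SD, n = 8) at the wild-type viewpoint. In the OctSox line the mutated values were 43.2% and 42.5% on day 0 and 39.8% and 58.0% on day 3. The wild-type values of that line were 14.8% and 27.9% on day 0 and 23.8% and 13.01% on day 3. All mutated libraries of the line lay above all wild-type ones. In the YY1 line the mutated values were 42.0% and 41.0% on day 0 and 45.2% and 61.5% on day 3. The wild-type values of the YY1 line were 21.3% and 19.8% on day 0 and 27.5% and 12.7% on day 3. Again no library crossed over, and the lowest of the 8 mutated values, 39.8%, stood above the highest wild-type value, 27.9%. The sides themselves offered similar numbers of fragments, with 47.2% of those within 1 Mb on the lower side of the mutated viewpoint and 46.2% at the wild-type viewpoint.

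Averaged over the 4 combinations of line and day, the mutated viewpoint exceeded the wild-type viewpoint by 26.6 percentage points (SD over the combinations 6.27), with a difference in the same direction in all 4. In the exact two-sided permutation test, which exchanged viewpoint names within line and day, p was 0.00154, the smallest that 1296 arrangements allow, and 0.00926 after Benjamini-Hochberg adjustment over 12 measures. Of these 12 measures of side, distance and concentration, 3 passed the threshold of 0.05, or 25.0%. When every fragment with a count was counted once, whatever its count, the difference in side within 1 Mb turned to -0.53 points. Without the 4 shallow libraries of day 3 replicate 2 it was 19.04 points, with an adjusted p of 0.0833 from a permutation test that could give no p below 0.0139.

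The difference lay mostly in the first 0.1 Mb on either side. The mutated viewpoint found 24.3% ± 10.7 (SD, n = 8) of its counts within 1 Mb in the window from 0 to 0.1 Mb on the lower side, with a lowest value of 14.4%, a median of 22.0% and a highest of 42.9%. The wild-type viewpoint found 0.18% ± 0.14 (SD, n = 8) there, between 0.044% and 0.479%. With this first 0.1 Mb left out on either side, a step added after seeing the data, the lower side held 39.3% of the mutated and 35.4% of the wild-type counts. That difference of 3.96 points did not pass (adjusted p = 0.204 over 5 added measures, exact permutation test). Its direction also turned, to -1.84 points, without the 4 shallow libraries, and to -5.04 points, past the threshold (adjusted p = 0.0116, exact permutation test), with each fragment counted once.

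**Figure D1:**
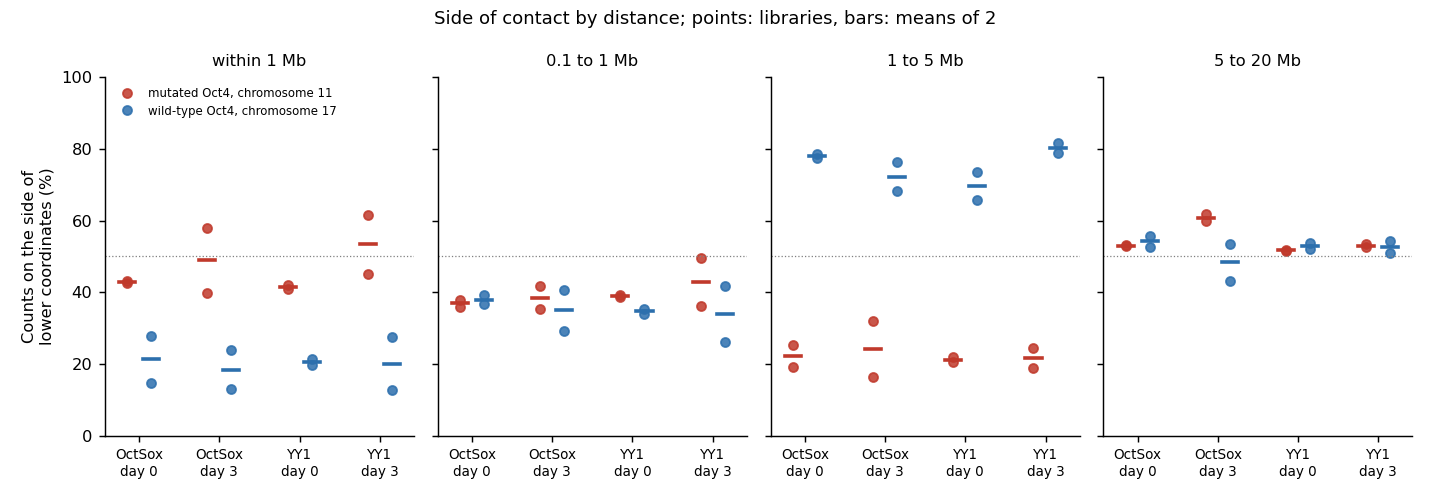
Percent of counts that lay on the side of lower coordinates (vertical axis) in 4 ranges of distance, by line and day; each point is 1 library, each bar the mean of 2, red the mutated and blue the wild-type viewpoint, and the dotted line marks equal sides. The libraries separate within 1 Mb with red on top and from 1 to 5 Mb with blue on top, and they overlap from 0.1 to 1 Mb and from 5 to 20 Mb.

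The fragments behind the empty window on chromosome 17 were looked at one by one. Of the 24 fragments in the first 0.1 Mb below the wild-type viewpoint, 6 had a count in any of the 8 libraries, against 24 of 24 above it, 13 of 14 below the mutated viewpoint and 11 of 11 above. The most counted of the 6, from 35619821 to 35627525, lay 6.46 kb from the viewpoint and had 461 counts over all 8 libraries. The next 11 fragments, from 35573383 to 35619814, included a single one with counts, the farthest, which had 126. The stretch also repeats itself in its cutting pattern. A run of 7 consecutive fragments from 35528334 to 35558948 has the same lengths, each within 2%, as the run of 7 from 35573383 to 35604166, including a fragment of 699 bp in both. Of these 14 fragments, 12 had no count in any library. In none of the other windows of 0.1 Mb within 1 Mb of either viewpoint was a run of more than 1 fragment repeated in this way. In the RefSeq gene order of a later build (GRCm38.p6), the 6 protein-coding genes next to Pou5f1 on the lower side are all class I major histocompatibility genes, H2-Q10, H2-Q7, H2-Q6, H2-Q4, H2-Q2 and H2-Q1, a family of close copies that present peptides to T cells. None of the 6 on the higher side, among them Tcf19, Cchcr1 and Cdsn, carries an H2 name. Reads that match repeated sequence can be lost in alignment, and the sources used here do not say how such reads were handled. The part of repeated sequence in the empty window was not tested.

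Between 1 and 5 Mb the order of the viewpoints was reversed. There the mutated viewpoint drew 22.3% ± 4.9 (SD, n = 8) of its counts from the lower side and the wild-type viewpoint 75.0% ± 5.6 (SD, n = 8). In the OctSox line the mutated values were 25.2% and 19.2% on day 0 and 16.3% and 31.9% on day 3. The wild-type values there were 78.7% and 77.5%, then 76.3% and 68.3%. In the YY1 line the mutated values were 22.0% and 20.5% on day 0 and 18.98% and 24.6% on day 3, and the wild-type values 73.5% and 65.6%, then 78.8% and 81.7%. The values of the viewpoints did not overlap. The mean difference was -52.7 points (SD over the combinations of line and day 5.25), with an adjusted p of 0.00926 by the exact permutation test. Without the 4 shallow libraries it was -56.0 points, with an adjusted p of 0.0833 in the smaller permutation test described above. Fragment numbers ran the other way from the counts, since the lower side held 56.8% of the fragments at 1 to 5 Mb from the mutated viewpoint and 48.1% at the wild-type one.

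Steps of 0.5 Mb show where these counts lay, as percentages of all counts outside the viewpoint and with no test. From 1 to 1.5 Mb on the lower side the mutated libraries held 0.44% to 0.944% and the wild-type libraries 1.30% to 2.23%. From 1 to 1.5 Mb on the higher side the order was opposite, with 1.67% to 4.31% in the mutated and 0.301% to 0.784% in the wild-type libraries. At 3 to 3.5 Mb the same held, with 0.139% to 0.342% against 0.364% to 0.991% on the lower side and 0.638% to 1.17% against 0.0376% to 0.167% on the higher side. In all 4 of these steps the libraries of the viewpoints did not overlap. Separation was not continuous, since the libraries overlapped in 4 of the 8 steps between 1 and 5 Mb on the lower side and in 6 of 8 on the higher side. From 1.5 to 2 Mb on the higher side, for one, the mutated libraries held 0.249% to 1.53% and the wild-type libraries 0.226% to 1.22%. The order of the means was the same in all 8 steps of a side, with the wild-type viewpoint higher on the lower side and the mutated one higher on the higher side. From 4.5 to 5 Mb the means were 0.376% and 0.499% on the lower side and 0.249% and 0.118% on the higher side for the mutated and wild-type viewpoint. From 5 to 20 Mb the lower side held 54.6% ± 3.9 (SD, n = 8) of the mutated counts and 52.0% ± 3.8 (SD, n = 8) of the wild-type counts, and the difference of 2.58 points did not pass (adjusted p = 0.337, exact permutation test).

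Within 1 Mb, contact was then compared in 20 windows of 0.1 Mb, 10 on each side, each as a percentage of the counts within 1 Mb. In the exact permutation test adjusted over these windows, 10 of 20 differed between the viewpoints (50.0%), 7 with the mutated viewpoint higher (35.0%) and 3 with it lower (15.0%). In 5 windows the 16 libraries did not overlap. Because the windows of a library sum to a fixed total, a gain in one of them lowers the others.

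**Figure D2:**
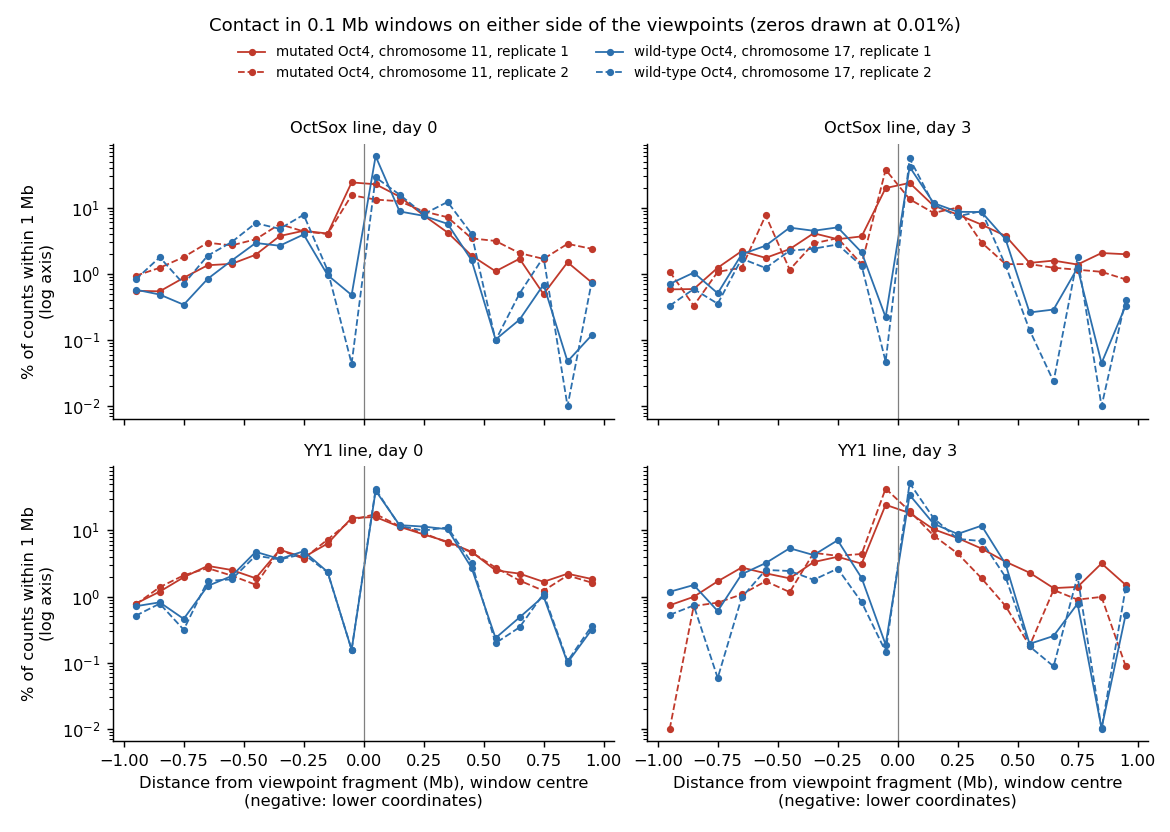
Percent of counts within 1 Mb (vertical log axis) in 0.1 Mb windows by distance from the viewpoint fragment in Mb (horizontal axis, negative for lower coordinates), one panel per line and day, red for the mutated and blue for the wild-type viewpoint, solid and dashed for replicates 1 and 2, zeros drawn at 0.01%. The blue lines drop in the last window before the viewpoint, where wild-type libraries hold 0.044% to 0.479% and mutated ones 14.4% to 42.9%, and again beyond 0.5 Mb on the right.

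Both of the largest differences lay beside the viewpoint. The lower window next to it was higher at the mutated viewpoint by 24.1 points, as described. The higher window next to it held 18.1% ± 3.9 (SD, n = 8) of the mutated counts, between 13.3% and 23.8% with a median of 18.0%, and 44.4% ± 10.8 (SD, n = 8) of the wild-type counts, between 28.8% and 60.3% with a median of 41.8%. No libraries overlapped, and the mutated viewpoint was lower by 26.3 points (adjusted p = 0.00617, exact permutation test). That window offered 11 fragments on chromosome 11 and 24 on chromosome 17.

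Farther out the differences were smaller and fell on both sides. From 0.1 to 0.2 Mb on the lower side the mutated libraries held 4.29% ± 1.82 (SD, n = 8) and the wild-type libraries 1.62% ± 0.63 (SD, n = 8), a difference of 2.68 points (adjusted p = 0.00772, exact permutation test), although single libraries overlapped. From 0.4 to 0.5 Mb on that side the mutated viewpoint was lower, with a median of 1.89% against 4.45% and a mean difference of -2.19 points (adjusted p = 0.0137, exact permutation test). On the higher side from 0.3 to 0.4 Mb it was lower again, with a median of 5.44% against 9.68% and a mean difference of -4.42 points (adjusted p = 0.00772, exact permutation test). The windows from 0.1 to 0.3 Mb on the higher side, by contrast, held similar amounts, with means of 11.01% and 12.4% and then 8.06% and 8.67%, and neither difference passed (adjusted p = 0.346 and 0.504, exact permutation test).

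Past 0.5 Mb on the higher side, the 5 windows held means of 1.24% to 1.99% at the mutated viewpoint. At the wild-type viewpoint 4 of them held means of 0.038% to 0.512%, and in each of these the mutated viewpoint was higher past the threshold (adjusted p from 0.00617 to 0.0463, exact permutation test). In the window from 0.8 to 0.9 Mb the mutated libraries held 1.99% ± 0.78 (SD, n = 8), between 0.988% and 3.17% with a median of 2.08%. The wild-type libraries held 0.038% ± 0.044 (SD, n = 8), with none above 0.105%. The difference was 1.96 points (adjusted p = 0.00617, exact permutation test), and no libraries overlapped. In this window 23 of 26 fragments on chromosome 11 and 8 of 27 on chromosome 17 had a count in any library. The window before it, from 0.7 to 0.8 Mb, was the exception at the wild-type viewpoint, with 1.30% against 1.24% at the mutated one (adjusted p = 0.854, exact permutation test).

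The same stretch was compared by 2 shares taken within the higher side alone, which leave out the empty lower window and were added after seeing the data. Of the higher-side counts within 1 Mb, the part beyond 0.5 Mb was 14.9% at the mutated viewpoint, with a range of 8.88% to 21.1%. At the wild-type viewpoint it was 2.89%, with a range of 1.36% to 4.36%. The libraries did not overlap and the difference of 12.004 points passed (adjusted p = 0.00386 over 5 added measures, exact permutation test). The part in the first 0.1 Mb was 34.6% at the mutated and 55.0% at the wild-type viewpoint, a difference of -20.4 points (adjusted p = 0.00772, exact permutation test). Divided by the fragments available in the stretch, that second difference turned to 0.45 on the log2 scale, with the mutated viewpoint higher.

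**Figure D3:**
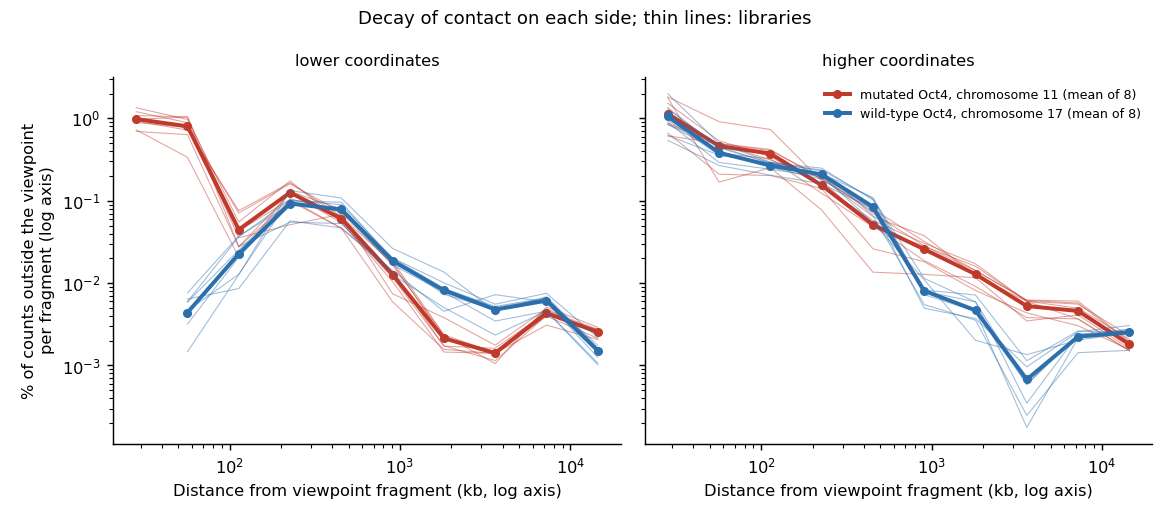
Percent of counts outside the viewpoint per fragment (vertical log axis) by distance in doubling steps from 20 kb (horizontal log axis), for lower coordinates on the left and higher coordinates on the right; thin lines are libraries, thick lines means of 8, red mutated and blue wild-type, and zeros are not drawn. On the left the blue mean starts from 0 and peaks at 160 to 320 kb with 0.0925% per fragment, where red has 0.126%, and on the right blue lies well below red from 640 to 10240 kb.

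Per fragment, contact was compared with distance on each side alone. The slope of log contact per fragment against log distance, fitted over those of 10 doubling steps from 20 kb that held counts, was -1.05 on the lower side and -1.03 on the higher side at the mutated viewpoint. At the wild-type viewpoint it was -0.43 on the lower side and -1.18 on the higher side. On the lower side the libraries did not overlap and the difference was -0.62 (adjusted p = 0.00386, exact permutation test), while on the higher side the mutated slope was the shallower by 0.14 (adjusted p = 0.00965, exact permutation test). The slopes by side were themselves added after seeing the data, and their p-values were adjusted over the 5 added measures. On the wild-type lower side the steps without counts drop out, so that 7 libraries were fitted over 9 steps and replicate 2 of the OctSox line on day 3 over 8, against 10 steps in every mutated library. Over the 8 steps from 80 kb, in which every library had counts on both sides, the lower-side slopes were -0.84 and -0.71, a smaller difference of -0.14 that still passed (adjusted p = 0.00579, exact permutation test), and the higher-side difference was 0.16. This range was also added after seeing the data. Its first step still included fragments of the empty window below the wild-type viewpoint, those from 81.3 to 96.0 kb away. The higher-side difference shrank to 0.02 (adjusted p = 0.696, exact permutation test) with each fragment counted once. The steps show the shape behind these slopes. From 20 to 40 kb on the lower side a mutated fragment held 0.982% ± 0.224 (SD, n = 8) of the counts on average, and the 4 wild-type fragments at that distance had none. On the higher side the same step held 1.14% ± 0.49 (SD, n = 8) at the mutated and 1.06% ± 0.47 (SD, n = 8) at the wild-type viewpoint, which differed by less than 1 SD. From 2560 to 5120 kb a fragment on the higher side held 0.00526% at the mutated and 0.000676% at the wild-type viewpoint. On the lower side at that distance it held 0.00141% and 0.00477%. Taken over both sides, the slopes of -1.05 and -0.96 did not differ past the threshold (difference -0.0857, adjusted p = 0.141, exact permutation test). From 80 kb that difference turned to 0.025, and with the replicate number as a block the one of -0.0857 passed (adjusted p = 0.0234, exact permutation test).

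Summed over both sides and taken as shares of counts, the distance bands differed much less than the sides did. Within 0.1 Mb the mutated libraries held 18.7% ± 5.0 (SD, n = 8) of the counts outside the viewpoint and the wild-type libraries 23.5% ± 8.9 (SD, n = 8). From 0.1 to 1 Mb the values were 25.9% ± 6.8 and 28.0% ± 4.3 (SD, n = 8 each), and from 5 to 20 Mb 22.2% ± 3.3 and 21.6% ± 3.7 (SD, n = 8 each). From 1 to 5 Mb they were 10.5% ± 1.9 and 8.43% ± 1.74 (SD, n = 8 each). None of these 4 differences passed (adjusted p from 0.141 to 0.756, exact permutation test). With the replicate number as a block, the one from 1 to 5 Mb did (2.05 points, adjusted p = 0.0375, exact permutation test). The bands depended on how they were counted. Per available fragment, those from 1 to 5 Mb and from 5 to 20 Mb also passed, with the mutated viewpoint higher and the values given further below. Within 0.1 Mb the mutated viewpoint has 25 fragments and the wild-type one 48. Per available fragment the mutated viewpoint was higher in this nearest band by 1.00 on the log2 scale (adjusted p = 0.00926, exact permutation test). Over fragments with a count in any library, 24 and 30 of them, the difference was -0.0047 (adjusted p = 0.977, exact permutation test). From 0.1 to 1 Mb the difference over fragments with a count passed, with the mutated viewpoint lower. Those fragments were chosen by the counts compared, so that call cannot decide whether the viewpoints differ.

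Beyond 20 Mb the mutated viewpoint held more, 22.8% against 18.5%. In the OctSox line the mutated libraries had 18.1% and 18.9% on day 0 and 22.3% and 32.8% on day 3, and the wild-type libraries 11.3% and 17.03%, then 19.6% and 22.7%. In the YY1 line the mutated libraries had 14.6% and 17.1% on day 0 and 25.6% and 32.8% on day 3, and the wild-type libraries 14.0% and 14.7%, then 25.4% and 23.1%. Within line and day the viewpoints overlapped in 2 of 4 combinations. The mean difference of 4.30 points passed (adjusted p = 0.037, exact permutation test). It was not stable: leaving out any 1 of 12 of the 16 libraries ended the call, with values between 2.99 and 5.62 points over the 16 fits. The call held without replicate 1 of the mutated OctSox day 3, YY1 day 0 or YY1 day 3 libraries, or without replicate 2 of the wild-type OctSox day 0 libraries. Without the 4 shallow libraries the difference was 2.18 points and did not pass. The smaller permutation test used there did not pass even the side shares whose libraries never overlapped, so it cannot show instability. Per available fragment the difference was 0.07 on the log2 scale (adjusted p = 0.648, exact permutation test). Over fragments with a count in any library it was 0.41 and passed (adjusted p = 0.00347, exact permutation test). These fragments were chosen by the counts compared, 33.2% of those beyond 20 Mb on chromosome 11 and 54.8% on chromosome 17. This last call therefore cannot decide whether the viewpoints differ. Of the fragments on chromosome 11, 67.9% lie beyond 20 Mb, against 58.1% on chromosome 17. The median distance of a count was 3.15 Mb at the mutated and 1.52 Mb at the wild-type viewpoint, with ranges of 0.446 to 7.22 Mb and 0.237 to 6.22 Mb, and did not differ past the threshold (adjusted p = 0.194, exact permutation test). Its difference changed direction without the 4 shallow libraries.

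**Figure D4:**
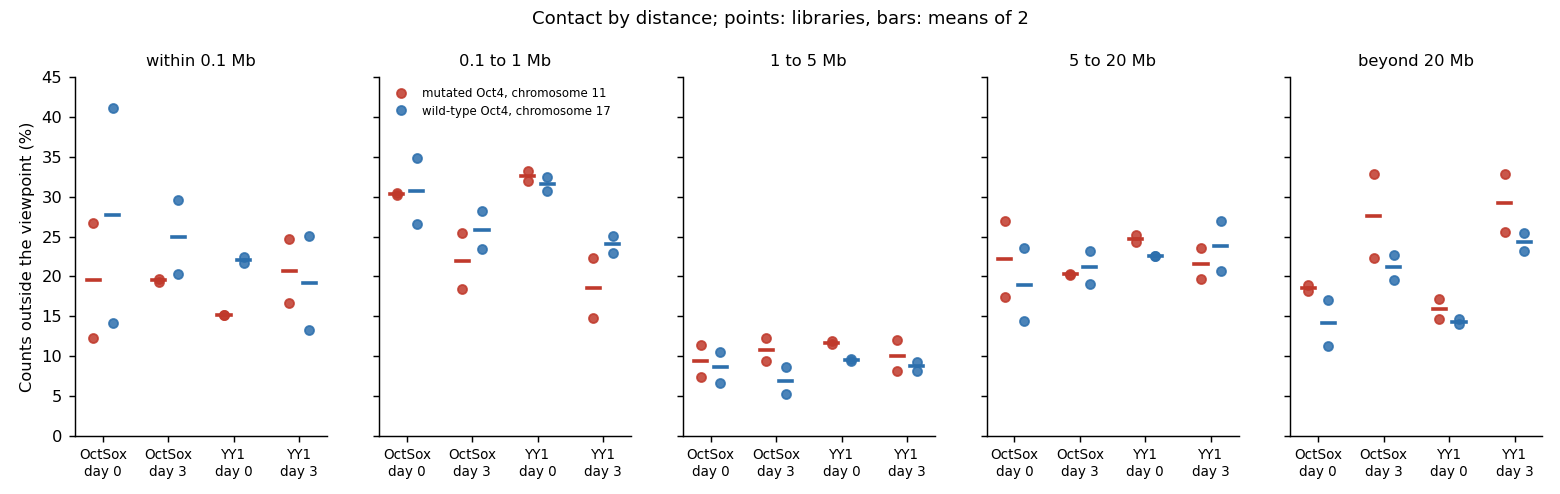
Percent of counts outside the viewpoint (vertical axis) in 5 distance bands by line and day; each point is 1 library, each bar the mean of 2, red the mutated and blue the wild-type viewpoint. The colours overlap in every band, and beyond 20 Mb the day 3 means are higher than those of day 0, by 11.2 points on average for red and 8.46 for blue, a step that was not tested.

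Local concentration was compared by how much of the contact within 1 Mb a few fragments held. The 10 most contacted fragments held 41.5% of it at the mutated viewpoint, with a range of 28.3% to 62.8%, and 44.0% at the wild-type viewpoint, with a range of 31.8% to 57.2%. The libraries overlapped widely and the difference of -2.44 points did not pass (adjusted p = 0.705, exact permutation test). The effective number of fragments, which is the number of equally contacted fragments that would give the same concentration, was 45.2 at the mutated viewpoint and 33.7 at the wild-type one. In the OctSox line it was 44.3 and 59.7 on day 0 and 40.4 and 20.6 on day 3 for the mutated libraries, against 19.3 and 55.0, then 31.1 and 11.5 for the wild-type ones. In the YY1 line it was 80.1 and 63.6 on day 0 and 40.3 and 12.7 on day 3 for the mutated libraries, against 47.0 and 38.8, then 51.2 and 16.1 for the wild-type ones. The 4 lowest of the 16 values included 3 of the 4 shallow libraries. The difference of 11.5 was 13.02 with every library thinned to 2820 counts, and did not pass (adjusted p = 0.312, exact permutation test). It turned to -0.47 with 3 rather than 1 fragment left out on either side. It was 24.4, past the threshold (adjusted p = 0.00741, exact permutation test), with nothing left out, when the viewpoint fragment itself counts.

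The most contacted fragments were close to the viewpoint and named by their mean percentage of counts within 1 Mb, with no test. At the mutated viewpoint the first was the same in both lines, 94808527 to 94811204 on chromosome 11, 2.01 kb away on the lower side. It held 2.87% and 6.07% on day 0 and 3.14% and 16.96% on day 3 in the OctSox line, and 1.75% and 1.45% on day 0 and 10.3% and 22.7% on day 3 in the YY1 line. The highest values in each line were those of the shallow day 3 replicate 2 library, and the first place rested on them. Without those libraries the fragment had rank 3 in both lines, with means of 4.03% in OctSox cells and 4.52% in YY1 cells, behind 94850687 to 94856332 (6.46% and 4.86%) and 94842901 to 94850680 (5.06% and 5.14%). Over all libraries the second, 94850687 to 94856332, lay 24.5 kb away on the higher side and held means of 6.03% in OctSox cells and 6.34% in YY1 cells. The third was 94842901 to 94850680 on the higher side in the OctSox line (4.99%) and 94783432 to 94793098 on the lower side in the YY1 line (4.61%). The empty window described above covered the first 0.1 Mb on the lower side of the wild-type viewpoint. At that viewpoint every one of the top 3 in each line lay on the higher side. The first, 35643155 to 35652106 on chromosome 17, 2.06 kb away, held 13.8% and 6.54% on day 0 and 13.8% and 26.7% on day 3 in the OctSox line, and 6.86% and 8.11%, then 9.19% and 21.3% in the YY1 line. The second, 35652113 to 35659414, held means of 7.29% and 5.53%. The third was 35671799 to 35674740 in the OctSox line (4.88%) and 35666366 to 35668007 in the YY1 line (4.48%).

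**Figure D5:**
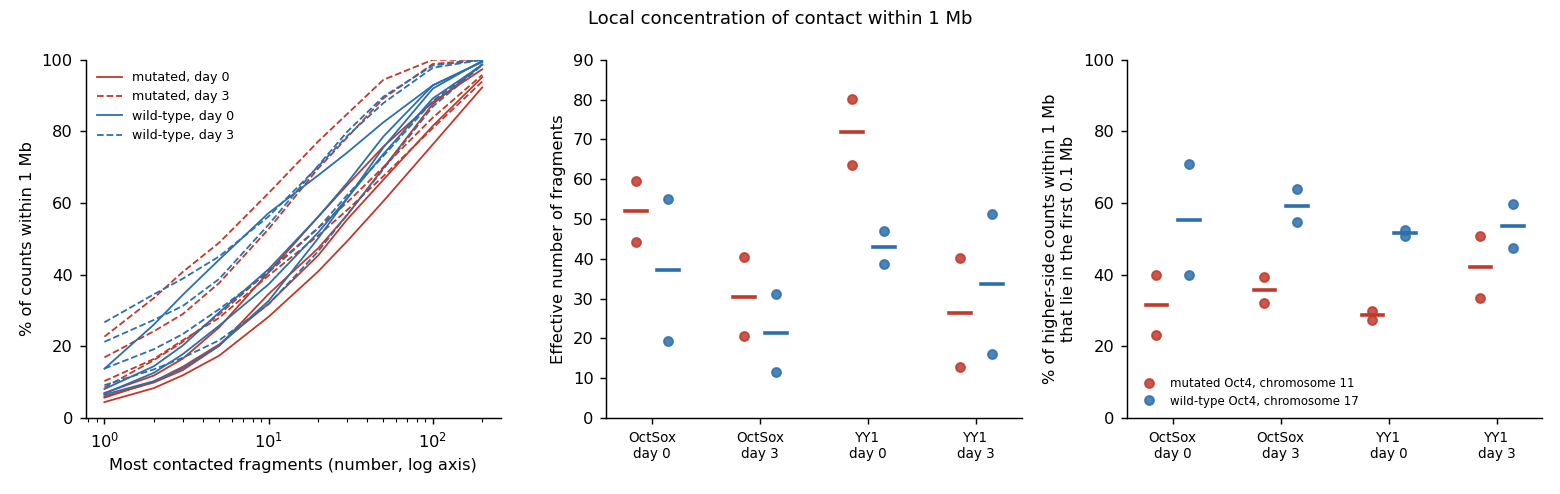
Left, cumulative percent of counts within 1 Mb held by the most contacted fragments (horizontal log axis), 1 line per library, dashed for day 3; middle, the effective number of fragments; right, the percent of higher-side counts within 1 Mb that lay in the first 0.1 Mb; points are libraries, bars means of 2, red mutated and blue wild-type. Red and blue overlap in the left and middle panels, and in the right panel the means are 34.6% for red and 55.0% for blue.

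Whether the step from day 0 to day 3 differed between the viewpoints was tested by exchanging day labels within line and viewpoint. None of the 12 measures passed (0.0%) in this exact permutation test, which also weakens where both viewpoints change alike, and 1 had an unadjusted p under 0.05. With the day change shared by both viewpoints taken out first, the count was again 0, with 1 under 0.05. That 1 was the lower-side share from 5 to 20 Mb, which moved by 4.55 points at the mutated viewpoint (7.75 in the OctSox and 1.35 in the YY1 line) and by -2.99 points at the wild-type viewpoint (-5.84 and -0.15), a difference of 7.54 points (p = 0.0293, adjusted p = 0.352, exact permutation test). Several measures moved the same way at both viewpoints, and these moves were not tested. The share beyond 20 Mb was higher on day 3 by 11.2 points at the mutated viewpoint (9.03 and 13.3 in the OctSox and YY1 lines) and by 8.46 points at the wild-type viewpoint (6.98 and 9.94). The share from 0.1 to 1 Mb changed by -11.2 points at the mutated and -6.17 points at the wild-type viewpoint. The effective number of fragments changed by -33.4 and -12.5, and its mean was lower on day 3 in both lines at both viewpoints. At the wild-type viewpoint this rested on the shallow replicate 2 library in the YY1 line only. In that line day 3 replicate 1 had 51.2, above the day 0 mean of 42.9. In the OctSox line day 3 replicate 1 had 31.1, between the day 0 values of 19.3 and 55.0 and below their mean of 37.1. Each line and viewpoint had its shallowest library on day 3 replicate 2. In the YY1 line both day 3 libraries were shallower than those of day 0. In the OctSox line day 3 replicate 1 was the deepest, with 64442 counts against 34764 and 6234 on day 0 at the mutated viewpoint. At the wild-type viewpoint it had 160876 against 111908 and 18609. The part of depth in these moves was not tested. The lower-side share within 1 Mb was higher on day 3 by 8.93 points at the mutated viewpoint and changed by -1.73 at the wild-type one; the difference of 10.7 points did not pass (adjusted p = 0.693, exact permutation test) and turned to -4.38 without the 4 shallow libraries.

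The difference between the viewpoints was also set side by side in the lines, a test added after seeing the data. For the lower-side share within 1 Mb it was 27.1 points in the YY1 line and 26.0 in the OctSox line, and from 1 to 5 Mb it was -53.4 and -52.0 points. Of the 12 measures, 0 differed between the lines (0.0%) by exact permutation of line labels, 0 of them at an unadjusted p under 0.05. The smallest unadjusted p was that of the lower-side share from 5 to 20 Mb (p = 0.103, exact permutation test), where the viewpoints differed by -0.42 points in the YY1 line and 5.58 points in the OctSox line. A p that misses the threshold does not show that the mutated alleles of the lines behave alike.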

How the data were processed

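The data were 4C libraries made with HindIII and sequenced on a MiSeq, per the labels' protocols. Reads were aligned with Bowtie to mm9, per the submitters' processing notes. For the version, the counting, its filters and the handling of reads with several matches: not given in the sources used here. As deposited by the authors, the values are raw counts of reads for each of 31865 HindIII fragments of chromosome 11 or 25150 of chromosome 17, whose positions are listed separately. No correction for PCR duplicates was possible, so shares carry more error than counting error alone. Counts within 1 Mb ranged from 1113 to 180614 per library, and the 95% Wilson interval of a lower-side share there was between 0.378 and 5.71 points wide. A count of 0 allows up to 3 counts, or 0.000899% to 0.106% of a library.

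The viewpoint was taken to be the fragment of highest count summed over its libraries, which matches the position by which the comparison was chosen. The viewpoint and 1 fragment on either side were left out, and distances ran from edge to edge. From the counts, 12 measures were computed per library: shares in 5 distance bands, lower-side shares in 3 ranges, the share of the top 10 fragments, the effective number of fragments (inverse Simpson index without replacement), the slope over 10 doubling bins from 20 kb, and the median distance. The difference between viewpoints was averaged over 4 combinations of line and day and tested by exact two-sided permutation within them, with Benjamini-Hochberg adjustment at 0.05 over 12 measures or 20 windows. Day and line differences were tested by permuting those labels. Another 5 measures were added after seeing the data. Named fragments were the viewpoints, their neighbours and the top 3 per viewpoint and line within 1 Mb. Named windows were the 3 highest and 3 lowest differences among those past the threshold, and further windows and steps were singled out after their values were seen. Members, measures and lists were chosen with earlier results of these data known. Fragment lengths were compared within 2%.

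Alternatives covered the fragments left out, range, unit of counting, caps, thinning, distance, fragment length, available fragments, libraries, the replicate block, window width and edgeR 4.0.16 (R 4.3.3) quasi-likelihood tests on window counts. The tests were tried on simulated data. Replicates correlated by Spearman's rho of 0.775 to 0.994 over 20 windows, and no 2 libraries were identical. Computation used scipy 1.17.1, pandas 2.3.3 and numpy 2.4.6 under Python 3.11.15, and plots matplotlib 3.10.9. The authors' deposited tables of their own day comparison were not used here.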

Additional observations from a re-analysis of the deposited data

How the results depend on the processing

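The lower-side difference within 1 Mb kept its direction and its side of the threshold in 10 of 12 alternatives and the one from 1 to 5 Mb in 11 of 12, and both did so with each library left out in turn (24.3 to 28.8 and -54.7 to -50.8 points). The exceptions were the fit without the 4 shallow libraries (19.04 and -56.0 points) and, within 1 Mb, counting each fragment once (-0.53). In the fit without those libraries the viewpoints still did not overlap, and the calls ended at the limit of the smaller permutation test. The higher-side share beyond 0.5 Mb held in 12 of 12. Its adjustment is over the 5 added measures, so its tally is not alike to those of the 12 measures. Windows that differed numbered 9 to 10 with a library left out, 9 with the replicate block, 10 by edgeR with and without it, and 6 of 10 at a width of 0.2 Mb. Windows were not divided by available fragments, so these tallies do not cover fragment numbers. Day differences stayed at 0 throughout. Causes were not tested.

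When the viewpoint and its neighbours were kept in, the bands changed to -24.4 (within 0.1 Mb), 4.93 (0.1 to 1 Mb) and 4.01 points (1 to 5 Mb), the share beyond 20 Mb to 9.47 points, the top 10 share to -20.5 points, the effective number to 24.4 and the median distance to 2.27 Mb, all past the threshold but the one from 0.1 to 1 Mb. The day differences of the first 2 bands turned to -14.8 and 0.396 points. With 3 neighbours left out, the share from 5 to 20 Mb became -0.281 and that beyond 20 Mb 3.92 points, the top 10 share 2.38 points and the effective number -0.466. With each fragment counted once, the bands became 0.147, 2.65, -2.00 (5 to 20 Mb) and -1.18 points (beyond 20 Mb), and the lower-side shares 4.55 (5 to 20 Mb) and -5.04 points (0.1 to 1 Mb), both past the threshold. With fragments capped at 1% of a library, the bands became -4.09 (0.1 to 1 Mb; now past the threshold), -0.465 (5 to 20 Mb) and 3.27 points (beyond 20 Mb), the top 10 share 2.36 points and the slope -0.083, which passed. With fragments of at least 1000 bp only, the lower-side share from 5 to 20 Mb was -0.337 points.

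Divided by available fragments, on the log2 scale, the 5 bands gave 1.00, 0.0658, 0.618, 0.456 and 0.0696, of which those within 0.1 Mb, from 1 to 5 Mb and from 5 to 20 Mb passed (adjusted p = 0.00926, 0.0104 and 0.0111, exact permutation test), the lower-side share from 5 to 20 Mb -0.0021 and the first 0.1 Mb of the higher side 0.45. Over fragments with a count in any library, an alternative added after seeing the data, the bands gave -0.0047, -0.50, 0.122, -0.0453 and 0.407, of which the second and the fifth passed (adjusted p = 0.00347 each, exact permutation test), and those shares -0.35 and 0.72. That alternative chooses fragments by the counts it compares, so its calls cannot decide whether the viewpoints differ. With steps from 80 kb, also added, the slope over both sides turned to 0.025. Without the 4 shallow libraries, the bands gave -0.227 (5 to 20 Mb) and 2.18 points (beyond 20 Mb), the median distance -0.0649 Mb, the lower-side share from 0.1 to 1 Mb -1.84 points, and the day differences -1.52 (beyond 20 Mb) and -4.38 points (lower side within 1 Mb). Leaving out each library in turn gave -8.13 to -1.38 (within 0.1 Mb), -3.21 to -1.14 (0.1 to 1 Mb), -0.61 to 1.76 (5 to 20 Mb), 2.99 to 5.62 (beyond 20 Mb), 1.30 to 3.87 (lower side from 5 to 20 Mb) and -5.51 to 0.62 points (top 10), an effective number of 6.99 to 15.9, 0.903 to 2.34 Mb (median distance, which passed at 2.21 Mb and adjusted p = 0.0494 in the exact permutation test without replicate 1 of the wild-type YY1 day 3 libraries) and -1.23 to 12.3 points (day difference within 0.1 Mb).

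Whether same-numbered libraries of the viewpoints deviate together depended on the values compared. Over 5 bands the correlations were 0.92, 0.456, 0.642 and 0.627, and over 20 windows 0.675, -0.441, 0.421 and 0.0999. No label ties the numbers to a shared source, and the block is given as an alternative. With the replicate block the share from 1 to 5 Mb (2.05 points, adjusted p = 0.0375) and the slope (-0.0857, adjusted p = 0.0234) passed in the exact sign-flip permutation test, and the other 10 measures kept their calls. For day differences the block allows no p below 0.125. The top 10 share and the effective number have no value with fragments counted once, nor slope, median distance and top 10 share per available fragment. Depth sets a floor of 3 counts, which is 0.106% in the shallowest library.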
